A study of Homo sapiens with 32 samples.

Results

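DEAD box (DDX) and DEAH box (DHX) proteins are the largest groups of RNA helicases, enzymes that use ATP to open RNA duplexes and to strip proteins from RNA. Both names spell, in the letters of the amino acids, a short motif of the ATP-binding core. DEAD box enzymes pull a short duplex apart locally and then let go, whereas DEAH box enzymes move along a strand and are often switched on by partners with a G-patch, a short glycine-rich stretch. In lymphoid cells, as in other dividing cells, they serve splicing, the assembly of ribosomes in the nucleolus, mRNA export, translation and RNA decay.

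The genes described here are those whose transcript cluster, the set of array probes assigned to one gene, carried a single platform symbol beginning with DDX or DHX and a number. DDX6, DDX23, DDX58, DDX60 and DHX58 were left out by the rule, and the cluster with the highest mean signal was to stand for a gene with several. This gave 38 genes, 25 DDX and 13 DHX, of 21788 clusters in all, and each of them had 1 such cluster. A further 10 clusters carried a DDX or DHX name together with another symbol and were not used, among them those of DHX15 and DDX39B. Of the 38, 35 had a mean signal above background and were tested among 14167 clusters. The other 3, DDX4 and DDX53 of the germ line and DDX25 of the testis, lay below background in total RNA in all 7 lines. Their highest total RNA signals in any line were 3.60, 4.23 and 4.53 on the log2 scale, against a background of 6.40.

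The study measured newly made and total RNA in 7 human B-lymphoblastoid lines of the HapMap panel, B cells immortalized with Epstein-Barr virus, each line from a different donor. Every culture was given 200 µM 4-thiouridine for 2 h, and its total RNA and labelled, nascent RNA were each hybridized to an exon array. There were 3 independent cultures per line for GM07029, GM10835 and GM12813, and a single culture for GM07019, for GM12812, for GM12814 and for GM12815. Only GM12813 had technical duplicates, with a repeat array for each culture and fraction. There was no unlabelled or untreated control, all lines carried the virus and the label alike, and a donor cannot be told apart from the line made from that donor. The series used the ratio of nascent to total RNA as a measure of mRNA turnover, in which a transcript replaced quickly has a high ratio.

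There were 32 arrays from 13 cultures, with array medians of 6.74 to 6.95 in total RNA and 7.58 to 7.92 in nascent RNA. The first total RNA array of GM12813 culture 3 was the least like its own line, with a mean correlation of 0.960. All 9 B cell markers on the array lay above background. This was so for 1 of 10 T and NK cell markers (NKG7), 1 of 8 of monocytes and granulocytes (ELANE) and 3 of 9 of fibroblasts and epithelia (COL1A1, KRT18 and KRT8). The summed log2 signal of the T and NK markers ranged from 52.6 to 55.3 over the lines and that of the B cell markers from 91.9 to 97.1, and their part in the results was not tested. In such bulk samples, fewer cells of a kind and less RNA per cell cannot be told apart.

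Short runs of letters were looked up in the promoters of the family, because several of its members serve ribosome assembly, whose genes often carry binding letters for ETS factors or for MYC. The letters CCGGAAGT, or ACTTCCGG on the other strand, are the core bound by ETS factors, and CACGTG, which reads the same on both strands, is the E-box bound by MYC. Promoters ran from 250 bases before to 50 after a RefSeq start on GRCh38.p14, and 35 of the 38 genes had one. The ETS letters stood in the promoters of 6 genes (DDX5, DDX21, DDX50, DDX56, DHX8 and DHX30), which is 17.1% of them. They stood in 3.42% of 35116 promoters and in 7.98% of the 7836 tested genes with a promoter. The E-box stood in 7 genes, or 20%, against 6.34% of promoters and 11.3% of tested genes. These shares are of unlike sets. Those of the family count genes and take in DDX25, which was not tested, whereas the promoter shares count promoters. The windows below, read 5′ to 3′ along the gene's strand with the ETS letters in capitals, are those of a pair of neighbouring paralogues that differ in their ratios (DDX50 and DDX21) and of the member with the ETS letters and the highest ratio (DDX56).
DDX50, chr10:68901256-68901285, plus strand: cggtgcgtgtcCCGGAAGTgacgcatggcc
DDX21, chr10:68956099-68956128, plus strand: tcctgcttcccCCGGAAGTgccttgctacg
DDX56, chr7:44573988-44574017, minus strand: aggccgccagcACTTCCGGgaagtgacttc
The first begins 48 bases before the listed start of DDX50, the next 60 before one of DDX21, and the last 98 before that of DDX56. A match is a run of letters and no shown binding site. Genes with the ETS letters had ratios from -0.17 for DDX50 to 1.48 for DDX56.

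Most helicase mRNAs in these lines were rich in newly made RNA. Of the 35 tested genes, 21 had a nascent/total ratio above that of the median cluster past the threshold, 3 had a lower one (DHX9, DDX17 and DDX49), and 11 did not pass. The highest ratios belonged to DDX55, a helicase of large ribosomal subunit assembly, at 4.28 times the median cluster, and DHX38, which remodels the spliceosome between its catalytic steps, at 3.80 times. The lowest was that of DHX9, which unwinds long RNA duplexes, at 0.53 times. The total RNA of DDX55 lay close to background in GM07019, GM12812 and GM12815. The median over the family was 0.40 on the log2 scale, beside -0.01 over all tested clusters.

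The ratio is the nascent minus the total log2 signal of a culture, less the median of that difference over the tested clusters of the culture, and lines were averaged over their cultures. Without that centring the median difference was 0.77, so absolute ratios depend on how the fractions were scaled, and all directions here are relative to the median cluster. Each ratio was tested against 0 over 7 lines with limma, and the threshold was an adjusted p of 0.05. Over all tested clusters 31.7% were higher and 31.7% lower by this rule. A ratio at least 2-fold above the median cluster was found for 10 of the 35 helicases, beside 9.18% of all clusters. The ratio was above 0 in all 7 lines for 20 helicases, below 0 in all for 2 and of mixed sign for 13, where 24.9% of all clusters were above and 25.2% below 0 in all lines. With the trend of the ratio on signal removed, 22 helicases were higher and 4 lower, where 32.3% of clusters were higher and 32.3% lower, and the family's median was 0.49. Without centring, 33 were higher and none was lower, where 11639 of all 14167 tested clusters were higher and 762 lower. Across the 35 helicases the ratio and the total RNA signal had a Spearman correlation of -0.55, which is a description only, since the ratio contains the total signal and both come from the same arrays.

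**Figure D1:**
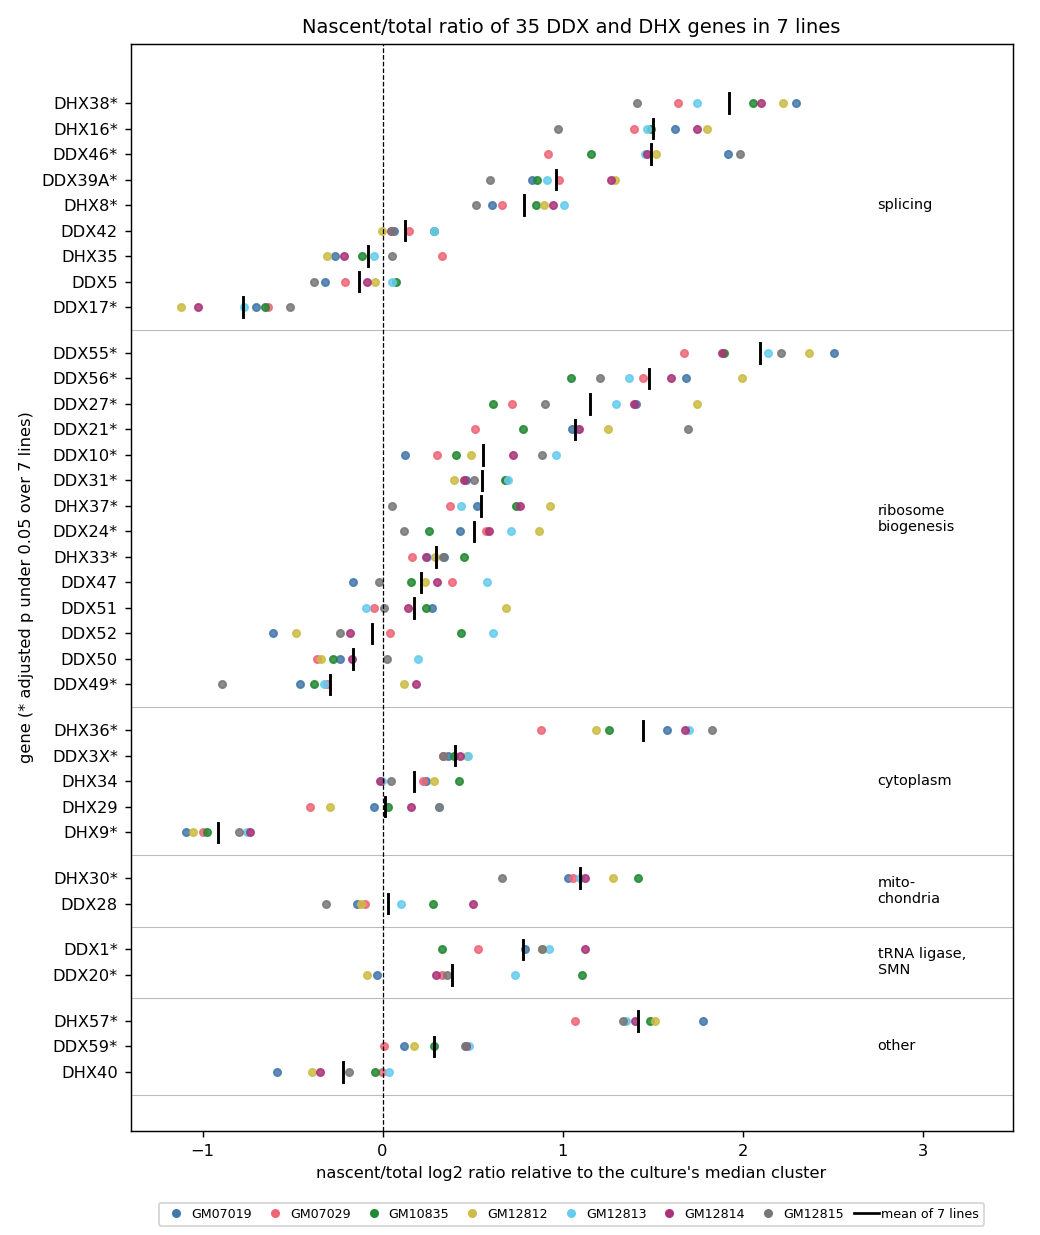
Nascent/total log2 ratio, relative to the culture's median cluster (horizontal axis), of the 35 tested helicase genes (vertical axis) in each of 7 lines (coloured dots), grouped by role, with the mean of the lines as a black bar and an asterisk where the adjusted p was under 0.05. DDX55 and DHX38 lie farthest to the right, with means of 2.10 and 1.93, and DHX9 and DDX17 are left of 0 in every line.

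Splicing helicases held some of the highest and some of the lowest ratios. Beside this group and those below, 31.7% of all tested clusters were higher and 31.7% lower, as were 21 and 3 of the 35 helicases. Of 9 splicing helicases tested, DHX38, DHX16, DDX46, DDX39A and DHX8 were higher and DDX17 was lower, and DDX42, DHX35 and DDX5 did not pass. Their median was 0.78. The 5 that were higher act on the spliceosome as it forms, reacts and releases its product, or, in the case of DDX39A, on spliced mRNA for export. DHX38 had total RNA log2 signals from 6.74 to 7.13 over the lines, with a median of 6.90, and nascent signals from 8.96 to 9.94, with a median of 9.71. Its ratio was 1.41 in the lowest line, 2.06 in the median line and 2.30 in the highest, a mean of 1.93 ± 0.33 (SD, n = 7; adjusted p = 6.43e-07). Every line was thus more than 1 log2 unit above the median cluster.

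DHX16, which drives the activated spliceosome into catalysis, had total signals from 6.57 to 7.27 and nascent signals from 8.39 to 9.59. Its ratio ran from 0.97 through a median of 1.49 to 1.80, with a mean of 1.5 ± 0.28 (SD, n = 7; adjusted p = 9.53e-07). DDX46, which acts when the branch point is recognized, had total signals from 6.13 to 7.45, below background in 1 line, and nascent signals from 8.47 to 9.18. Its ratio ran from 0.92 through 1.47 to 1.98, with a mean of 1.49 ± 0.38 (SD, n = 7; adjusted p = 2.65e-06). Both genes were above the median cluster in all 7 lines. DDX39A, a close relative of the export helicase DDX39B, had a ratio from 0.60 through 0.91 to 1.29, with a mean of 0.96 ± 0.25 (SD, n = 7; adjusted p = 7.17e-06). DHX8, which releases the spliced mRNA, had a mean of 0.78 ± 0.19 (SD, n = 7) and was likewise above 0 in every line. DDX42 had a mean of 0.12 ± 0.12 (SD, n = 7; adjusted p = 0.153), which was 0.36 and passed with the trend removed (adjusted p = 0.000723), and it also passed without centring.

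DDX5 and DDX17 are paralogues that act as cofactors of splicing, transcription and microRNA processing. DDX17 had total signals from 11.38 to 11.84, with a median of 11.64, and nascent signals from 11.48 to 11.78, with a median of 11.70. The ratio lay between -1.12 and -0.51, around a median of -0.70, with a mean of -0.77 ± 0.22 (SD, n = 7; adjusted p = 1.47e-05), and was below the median cluster in every line. DDX5 had a ratio from -0.38 through -0.09 to 0.08, with a mean of -0.13 ± 0.18 (SD, n = 7; adjusted p = 0.174), and did not pass. With the trend on signal removed DDX17 kept its direction at -0.28 (adjusted p = 0.00689), while DDX5 turned to 0.30 (adjusted p = 0.00949). Without centring the ratio of DDX17 was close to 0 (adjusted p = 0.993) and that of DDX5 was 0.64 (adjusted p = 4.43e-05), so the direction of DDX5 rests on the scaling.

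Nucleolar helicases of ribosome assembly formed the largest group. Of 14 tested, 9 were higher (DDX55, DDX56, DDX27, DDX21, DDX10, DDX31, DHX37, DDX24 and DHX33) and DDX49 was lower. DDX47, DDX50, DDX51 and DDX52 did not pass, and the median was 0.53. Over the whole family 21 of 35 were higher, and over all tested clusters 31.7%. DDX55 had total signals from 6.43 to 7.21, with a median of 6.65, and nascent signals from 9.30 to 9.93, with a median of 9.63. Its ratio was 1.67 in the lowest line, 2.14 in the median line and 2.51 in the highest, with a mean of 2.10 ± 0.30 (SD, n = 7; adjusted p = 4.94e-07). No other member had a lowest line as high. Total RNA of DDX55 was close to the background of 6.40 in GM07019, GM12812 and GM12815, at 6.43, 6.45 and 6.44. These lines had its highest ratios, 2.51, 2.37 and 2.22. DDX56, also of large subunit assembly, had total signals from 7.09 to 8.21 and nascent signals from 8.95 to 10.09. Its ratio ran from 1.05 in GM10835, the line with the most total RNA of this gene, through 1.45 to 1.99, with a mean of 1.48 ± 0.32 (SD, n = 7; adjusted p = 1.4e-06).

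DDX21, which joins transcription of ribosomal RNA to its processing, had total signals from 8.96 to 10.40 and nascent signals from 11.03 to 11.68. Its ratio ran from 0.52 through 1.09 to 1.70, with a mean of 1.07 ± 0.37 (SD, n = 7; adjusted p = 1.92e-05). DDX50, its neighbouring paralogue on chromosome 10, whose promoter window with the ETS letters is printed above, had a ratio from -0.37 through -0.23 to 0.20, with a mean of -0.17 ± 0.21 (SD, n = 7; adjusted p = 0.108). The lowest line of DDX21 was therefore above the highest line of DDX50, a difference that was not tested. Without centring the ratio of DDX50 was 0.61 and that of DDX21 1.84, so DDX50 changed sign and their order did not.

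DDX24, of large subunit assembly, had total signals from 10.18 to 10.88 and nascent signals from 10.98 to 11.97, and its ratio ran from 0.12 through 0.57 to 0.87, with a mean of 0.51 ± 0.26 (SD, n = 7; adjusted p = 0.00079). DHX33, which takes part in ribosomal RNA transcription, had total signals from 7.79 to 8.26 and nascent signals from 8.92 to 9.28, and its ratio ran from 0.16 through 0.29 to 0.45, with a mean of 0.30 ± 0.09 (SD, n = 7; adjusted p = 0.00314). Both stayed above 0 in every line, by a small margin in the lowest. DDX27 (1.15), DDX10 (0.56), DDX31 (0.55) and DHX37 (0.55), all with roles in subunit assembly, had mean ratios between these and DDX56. DDX49 had a mean of -0.29 ± 0.36 (SD, n = 7; adjusted p = 0.0463), with lines from -0.89 to 0.19. Its call is weak, because it was lost in 9 of 16 alternatives, among them those without GM07019, GM07029, GM10835, GM12813 or GM12815 (adjusted p up to 0.131), and its ratio was 0.48 without centring. DDX52 and DDX51 had means of -0.06 and 0.17. DDX47 had a mean of 0.21 (adjusted p = 0.0713), which was 0.53 with the trend removed (adjusted p = 0.000467), and it passed as higher in 6 of 16 alternatives, among them that without GM07019.

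Among helicases of the cytoplasm and of RNA structure, DHX36 and DDX3X were higher, DHX9 was lower and DHX34 and DHX29 did not pass. DHX36, which opens G-quadruplexes, had total signals from 6.61 to 7.89, with a median of 6.91, and nascent signals from 8.71 to 9.54, with a median of 9.18. The ratio was 0.88 in the lowest line, 1.58 in the median line and 1.83 in the highest, with a mean of 1.45 ± 0.34 (SD, n = 7; adjusted p = 2.1e-06). DHX9 had total signals from 10.45 to 10.91, with a median of 10.78, and nascent signals from 10.23 to 10.83, with a median of 10.59. The ratio lay between -1.09 and -0.74, around a median of -0.97, with a mean of -0.91 ± 0.15 (SD, n = 7; adjusted p = 1.74e-06). The lines of DHX36 and DHX9 lay on opposite sides of the median cluster without exception. Removing the trend on signal left DHX9 at -0.62 (adjusted p = 1.68e-05), and without centring it was at -0.14 (adjusted p = 0.152).

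DDX3X, which helps ribosomes start on structured mRNAs, had total signals from 10.21 to 10.85 and nascent signals from 11.49 to 12.12. Its ratio was 0.34 in the lowest line, 0.40 in the median line and 0.47 in the highest, with a mean of 0.40 ± 0.06 (SD, n = 7; adjusted p = 0.000321). That SD was the smallest of any tested member, and it was below the gene's own SD over technical duplicates (0.18). A near-identical copy of the gene exists, for which the array has a separate cluster that names both genes and was not used, and how far the copy adds to the DDX3X signal was not tested. DHX29, which assists scanning ribosomes, had total signals from 7.53 to 8.75 and nascent signals from 8.24 to 9.12, and a ratio from -0.40 through 0.03 to 0.32, with a mean of 0.01 ± 0.28 (SD, n = 7; adjusted p = 0.928). DHX34, a factor of nonsense-mediated decay, had a mean of 0.17 (adjusted p = 0.0777).

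The remaining members have more separate roles. DHX30, which acts on mitochondrial ribosomes, had a mean ratio of 1.10 ± 0.24 (SD, n = 7; adjusted p = 2.84e-06), and DDX28, of the same compartment, one of 0.03 ± 0.28 (SD, n = 7; adjusted p = 0.803). DDX1, a part of the tRNA ligase complex, had total signals from 8.54 to 9.78 and nascent signals from 10.37 to 10.94, and its ratio ran from 0.33 through 0.88 to 1.12, with a mean of 0.78 ± 0.27 (SD, n = 7; adjusted p = 4.1e-05). DDX20, a part of the SMN complex that builds spliceosomal particles, had a ratio from -0.09 through 0.33 to 1.11, with a mean of 0.39 ± 0.42 (SD, n = 7; adjusted p = 0.0238). It was below 0 in GM07019 and GM12812 and highest in GM10835, and it no longer passed without GM10835, without GM12813 or with the trend removed (highest adjusted p = 0.072). DHX57 had a mean of 1.42 ± 0.22 (SD, n = 7), but its total RNA lay below background in 6 of 7 lines, so its ratio rests on a total signal that is not told from background. DDX59 had total signals from 7.43 to 8.12, nascent signals from 8.53 to 9.18 and a ratio from 0.01 through 0.28 to 0.48, with a mean of 0.28 ± 0.19 (SD, n = 7; adjusted p = 0.011), which did not pass with the trend removed (adjusted p = 0.0598). DHX40 had a mean of -0.22 (adjusted p = 0.0517).

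The partners of these enzymes did not all share the pattern. Of 20 tested genes listed as G-patch partners of DEAH box helicases, 15 were higher and 3 lower, with a median of 0.74. Whether each of them switches on such a helicase was not tested. NKRF, a nucleolar G-patch protein of ribosomal RNA processing, was at 2.13 ± 0.26 and GPATCH4, also nucleolar, at 1.69 ± 0.38 (SD, n = 7; adjusted p = 4.83e-07 and 1.4e-06). The mean total RNA signal of NKRF, 6.14, lay below the background of 6.40, so its ratio rests on a total signal not told from background. Among 6 tested proteins that bind or regulate DEAD box helicases of translation and export, 2 were higher and 2 lower, with a median of 0.13. EIF4H, which stimulates the translation helicase, was at -1.04 ± 0.38 and PDCD4, which inhibits it, at 0.88 ± 0.54 (SD, n = 7; adjusted p = 1.88e-05 and 0.000634). Of the TREX complex, which couples transcription to export with DDX39B, 3 of 8 were higher and 4 lower, with a median of -0.16.

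In that complex CHTOP was at 0.96 ± 0.20 and ERH at -0.80 ± 0.41 (SD, n = 7; adjusted p = 3.72e-06 and 0.000223). Of 14 tested RNA helicases outside the DDX and DHX names, 5 were higher and 4 lower, with a median of -0.04. SNRNP200, the helicase that unwinds the spliceosomal RNA pair before activation, was at 1.26 ± 0.49, and MOV10, a cytoplasmic helicase that restrains retroelements, at -1.21 ± 0.27 (SD, n = 7; adjusted p = 2.68e-05 and 1.64e-06). Without centring MOV10 was still below 0 at -0.44, while EIF4H (-0.27) and ERH (-0.03) no longer passed. The lists were compared by their counts and medians only, and 31.7% of all clusters were higher and as many lower.

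**Figure D2:**
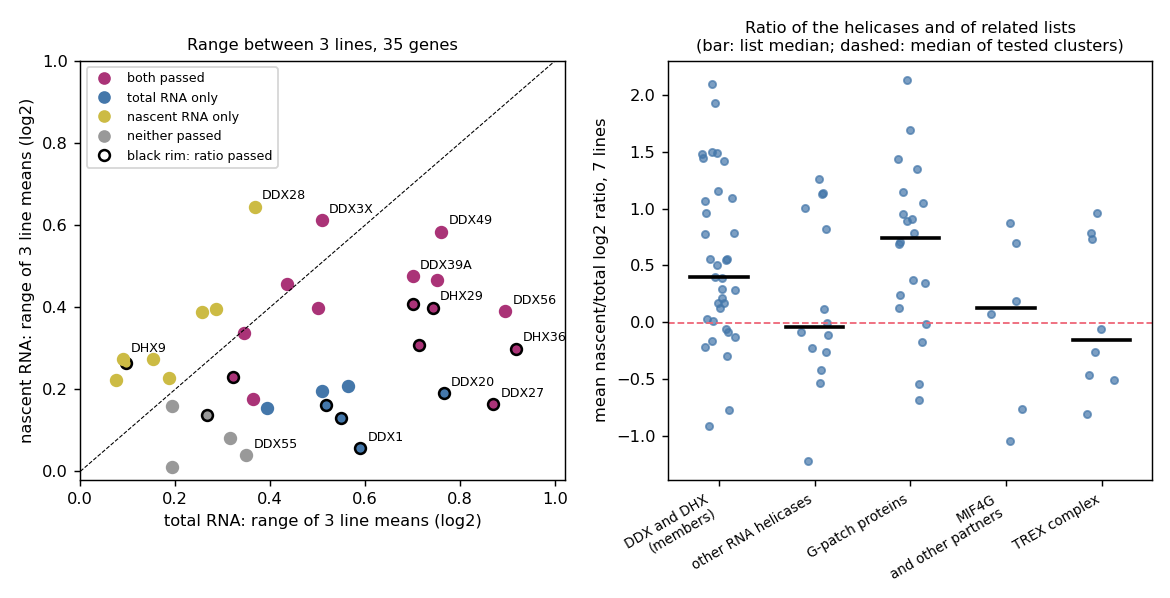
Left, range of the means of GM07029, GM10835 and GM12813 in total RNA (horizontal axis, log2) against nascent RNA (vertical axis, log2) for the 35 tested helicases, coloured by which fraction passed, with a black rim where the ratio passed and a dashed line of equality. Right, mean nascent/total log2 ratio over 7 lines of the helicases and of 4 related lists (dots), with list medians as bars and the median of all tested clusters dashed. The total RNA range was the larger one for 25 of 35 genes (68.1% of all clusters), and the list medians were 0.40 for the helicases and 0.74 for the listed G-patch partners.

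Levels of many helicase mRNAs differed between GM07029, GM10835 and GM12813, about as often as those of other genes. In total RNA 22 of the 35 passed limma's moderated F test over the 9 cultures (61.1% of all clusters did), and in nascent RNA 23 (55.8%). Both fractions passed for 15 helicases (44.1% of all clusters), total RNA only for 7 (17%), nascent RNA only for 8 (11.7%) and neither for 5 (27.2%). Here and below, signals are given relative to the median of their array over tested clusters, since that is what was tested, and ± is the SD over the 3 cultures of a line. The range of the line means was wider in total than in nascent RNA for 25 of 35 helicases and for 68.1% of all clusters.

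DHX36 had the widest range in total RNA. Its level was -0.05 ± 0.26 in GM07029, -0.62 ± 0.18 in GM10835 and -0.97 ± 0.24 in GM12813 (n = 3 each), a range of 0.92 (adjusted p = 0.00102), and every GM07029 culture was above all others. DDX56 was at -0.71 ± 0.03, 0.19 ± 0.12 and -0.50 ± 0.06 in the same order of lines, a range of 0.89 (adjusted p = 1.72e-05). All GM10835 cultures of DDX56 were above, and all GM07029 cultures below, those of the other lines. DDX27, of large subunit assembly, was at -0.07 ± 0.12, 0.29 ± 0.03 and -0.58 ± 0.12, a range of 0.87 (adjusted p = 3.64e-05), with no overlap between lines. DDX20 was at -0.10 ± 0.26, -0.87 ± 0.08 and -0.33 ± 0.13, a range of 0.77 (adjusted p = 0.000804). Its GM10835 cultures were below all others, while those of the other lines overlapped.

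In nascent RNA the widest range was that of DDX28, the mitochondrial ribosome helicase, at -0.95 ± 0.05 in GM07029, -0.31 ± 0.17 in GM10835 and -0.59 ± 0.03 in GM12813 (n = 3 each; range 0.65, adjusted p = 0.000394). The cultures of the lines did not overlap, although in total RNA the gene did not pass (range 0.37, adjusted p = 0.184). DDX3X was at 3.02 ± 0.17, 2.63 ± 0.04 and 3.25 ± 0.03 in nascent RNA (range 0.61, adjusted p = 0.000196), with GM10835 below and GM12813 above all other cultures. DDX49 was at -0.49 ± 0.10, 0.10 ± 0.18 and -0.48 ± 0.04 (range 0.58, adjusted p = 0.000389), and DDX39A at 0.93 ± 0.14, 1.41 ± 0.14 and 1.07 ± 0.05 (range 0.47, adjusted p = 0.00145). In both genes GM10835 was above all other cultures.

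DDX3X, DDX49 and DDX39A differed between the lines in total RNA too, with ranges of 0.51, 0.76 and 0.70 (adjusted p = 0.000769, 3.03e-05 and 0.000129). The line that was highest in total RNA was also highest in nascent RNA, GM12813 for DDX3X and GM10835 for DDX49 and DDX39A. Their ratios had ranges of 0.14, 0.07 and 0.12 and did not pass (adjusted p = 0.53, 0.876 and 0.755), which does not show that the ratios were equal. DDX17 was lowest in GM10835 in both fractions, with 3.36 ± 0.05 in total and 2.49 ± 0.03 in nascent RNA, below all other cultures (adjusted p = 0.00277 and 0.00049), and its ratio had a range of 0.14 (adjusted p = 0.505). DHX9 and DHX38 passed in nascent RNA only, with ranges of 0.27 in each (adjusted p = 0.00645 and 0.0151). DHX9 no longer passed with no filter or without centring (adjusted p up to 0.186), and DHX38 without GM12813 culture 2 (0.0584). DDX46 passed in total RNA only, with a range of 0.56 (adjusted p = 0.00808, or 0.135 with technical duplicates left out), and DDX5 in neither, with ranges of 0.19 and 0.01.

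The ratio differed between the lines for 12 of the 35 helicases, beside 25.4% of all clusters. The 6 widest ranges were those of DHX36, DDX20, DHX29, DDX27, DDX10 and DDX1, and the other 6 were DDX21, DDX24, DHX35, DHX34, DDX47 and DHX37. This count is fragile. It fell to 6, 5 and 4 without GM10835 culture 1, 2 or 3, and to 4, 2 and 1 without GM12813 culture 1, 2 or 3. It was 10, 10 and 14 without single GM07029 cultures, 10 without the array that stood apart, and 1 when technical duplicates were left out or no filter on low signal was set. The ratio contains the total signal of the same culture, so a line low in total RNA is drawn towards a high ratio. Opposite orders of the lines in total RNA and in the ratio, given below, are therefore a description only.

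DHX36 had ratios of 0.71, 1.25 and 0.69 in the GM07029 cultures, 1.05, 1.53 and 1.20 in GM10835 and 1.5, 1.66 and 1.95 in GM12813. Neighbouring lines overlapped, and GM12813 lay above every GM07029 culture (range of line means 0.82, adjusted p = 0.029). The order of the lines was the reverse of that in total RNA, and the nascent range was 0.30 with GM07029 highest (adjusted p = 0.0235). That nascent call was lost without GM07029 culture 2, with no filter, without centring and with quantile normalization (adjusted p up to 0.635). DHX29 had ratios of -0.34, -0.25 and -0.61 in GM07029, -0.14, 0.24 and -0.0016 in GM10835 and 0.11, 0.24 and 0.60 in GM12813 (range 0.72, adjusted p = 0.0198). All GM07029 cultures were below the rest, and in total RNA the same line, at 0.81 ± 0.16, was above the others at 0.09 ± 0.15 and 0.07 ± 0.27 (adjusted p = 0.000794). Nascent RNA of DHX29 was also highest in GM07029, at 0.30 ± 0.11 beside -0.10 ± 0.15 and 0.20 ± 0.09 (range 0.40, adjusted p = 0.00685). That nascent call was lost with no filter and without centring (adjusted p up to 0.579).

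DDX20 had ratios of 0.24, 0.48 and 0.27 in GM07029, 0.89, 1.26 and 1.18 in GM10835 and 0.63, 0.73 and 0.85 in GM12813 (range 0.78, adjusted p = 0.00689). The lines did not overlap. GM10835, which had the least total RNA of DDX20, had the highest ratio, while nascent RNA, at 0.11 ± 0.08, 0.02 ± 0.14 and 0.21 ± 0.09, did not pass (range 0.19, adjusted p = 0.172). It was the only member whose ratio still passed under every alternative tried, those with single cultures left out and with no filter included. DDX1 had ratios of 0.29, 0.89 and 0.40 in GM07029, 0.28, 0.46 and 0.25 in GM10835 and 0.84, 0.91 and 1.03 in GM12813 (range 0.60, adjusted p = 0.0385). GM07029 culture 2 reached the GM12813 values, and nascent RNA differed by 0.06 at most (adjusted p = 0.799), beside 0.59 in total RNA (adjusted p = 0.00116). The ratio of DDX1 no longer passed without any one culture of GM10835 or GM12813 (highest adjusted p over its alternatives 0.127).

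DDX27 had ratios of 0.94, 0.74 and 0.47 in GM07029, 0.60, 0.70 and 0.55 in GM10835 and 1.09, 1.35 and 1.45 in GM12813 (range 0.68, adjusted p = 0.0144). DDX10, of small subunit assembly, had ratios of 0.64, 0.23 and 0.04, of 0.32, 0.58 and 0.32, and of 0.95, 0.93 and 1.01 in the same lines (range 0.66, adjusted p = 0.0198). In both genes GM12813 lay above all other cultures in the ratio and below them in total RNA, where DDX10 was at 1.00 ± 0.18, 0.69 ± 0.14 and 0.29 ± 0.09 (adjusted p = 0.000414). Nascent RNA passed in both too, with ranges of 0.16 for DDX27 and 0.31 for DDX10 (adjusted p = 0.0355 and 0.00608). The nascent call was lost in 8 of 17 alternatives for DDX27 and in 2 of 17 for DDX10. The ratio call was lost for DDX10 without any one culture of GM12813, for DDX27 without its culture 2 or 3 and for DHX29 without its culture 3. That of DHX36 was lost without GM12813 culture 2 or 3, GM07029 culture 1 or 3 or GM10835 culture 3. All 4 were also lost with no filter and with technical duplicates left out. The highest adjusted p over all alternatives was 0.0708 for DDX10, 0.0677 for DDX27, 0.108 for DHX29 and 0.107 for DHX36. Of the 12 helicases that passed in the ratio, 8 were highest in GM12813, beside 45.6% of the 3595 clusters that passed, and 6 were lowest in GM07029, beside 30.5%. The largest group in which a line was lowest in total RNA was that of GM12813, with 10 of 22, beside 25.5% of clusters.

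**Figure D3:**
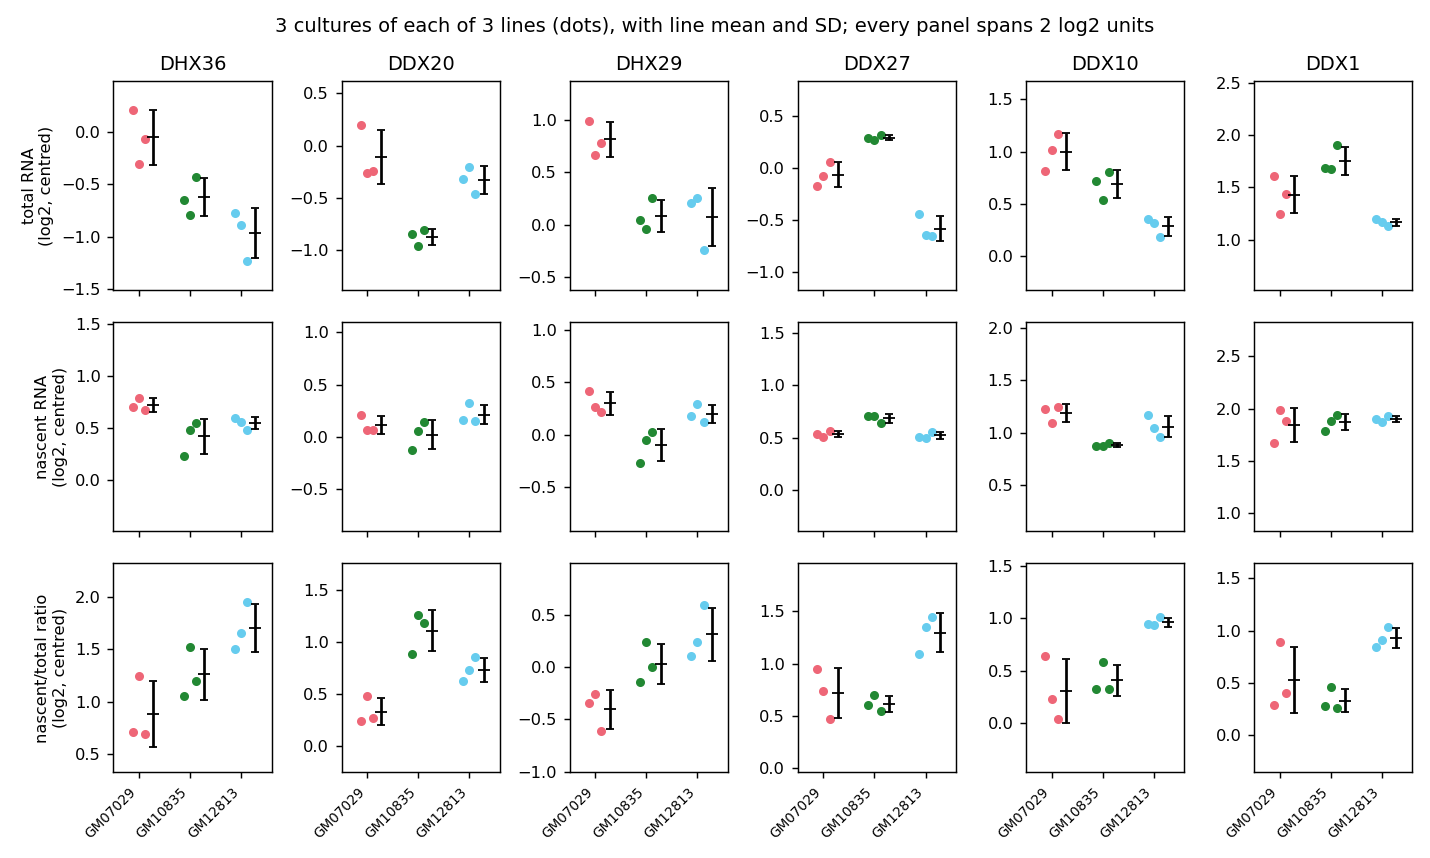
Total RNA, nascent RNA and nascent/total ratio (rows, log2, centred on the array's or culture's median over tested clusters) of the 6 helicases with the widest ratio range that passed (columns) in the 3 cultures of GM07029, GM10835 and GM12813 (dots), with mean and SD beside them. Every panel spans 2 log2 units. Total RNA spreads by 0.59 to 0.92 between line means, nascent RNA by 0.06 to 0.40, and DDX20 is lowest in total RNA and highest in the ratio in GM10835. The ratio contains the total signal of the same culture, so these rows are not independent.

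Differences between lines can be set against those within them. The median SD of a helicase's ratio over technical duplicates was 0.147, over cultures of the same line 0.148 and over the 7 lines 0.259. These are unlike measures. The first is for single arrays of GM12813 only, and the next pools the 3 lines with 3 cultures. The last mixes means of 3 cultures with single cultures. Over the 7 lines DDX52, DDX20 and DDX27 had the widest SDs, at 0.45, 0.42 and 0.42, and DDX3X and DHX33 the narrowest, at 0.06 and 0.09. Technical duplicates of DDX3X and DHX33 had larger SDs, 0.18 and 0.16, so their narrow SDs do not show a stable ratio. Single cultures stand for 4 of the lines, so culture and line cannot be told apart in them.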

How the data were processed

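The values used were the log2 exon array signals that the authors deposited, with 1 value per transcript cluster and array. Affymetrix Power Tools and build hg18 are named per the submitters' processing notes; how signals were summarized, corrected and normalized is not given in the sources used here. Background was the 95th percentile of the means of 216 olfactory receptor clusters (6.40), and clusters with a higher mean over 32 arrays were tested. Technical duplicates were averaged and each culture was centred on its median over tested clusters. Ratios over 7 lines and all values between 3 lines were tested with limma 3.58.1 in R 4.3.3 (lmFit and eBayes with a trend, Benjamini-Hochberg over 14167 clusters, two-sided). The tests of the ratio were run on simulated data as well, and those of total and nascent RNA were not. Trends of the ratio on mean signal were removed by lowess with a span of 0.3. Gene symbols came from the platform table, and promoters from RefSeq on GRCh38.p14. The signals are no counts, so the number of arrays limits their precision. Members, role lists, partner lists and tests were chosen with earlier results of these data known. Values were given in full for the 6 highest and 6 lowest ratios past the threshold with one sign in all lines, for the widest ranges between lines (6 in the ratio, 4 in each fraction) and for a set of well-studied members, and the 2 largest ratios were named in each partner list. Alternatives were the filter, centring, quantile normalization, eBayes without a trend, the duplicates, the array that stood apart, the trend, cultures with the line as a random block, a replicate block, and leaving out lines or cultures.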

Additional observations from a re-analysis of the deposited data

Results flagged for a closer look

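Levels here are log2 signals relative to the array's median over tested clusters. Among 105 groups of 7 lines (35 helicases in total RNA, nascent RNA and the ratio), 6 had 1 line far from the others, 5 in total RNA and 1 in nascent RNA. Chance flags about 1 in 20 such groups, so 6 of 105 is near the chance share over the 3 measures together. The flags were uneven, at 5 of 35 groups in total RNA, 1 in nascent RNA and 0 in the ratio. The measures come from the same arrays, so these groups are not independent. In the total RNA of GM10835, DDX20 was lowest at -0.87, with the next line at -0.40. DDX24 was highest there at 2.86 (next 2.51), DDX49 at 0.69 (next 0.19) and DDX56 at 0.19 (next -0.50). DHX29 was highest in GM07029 at 0.81, with the next line at 0.16. In nascent RNA DDX55 was lowest in GM12814 at 0.60, with the next line at 0.77.

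The ratio of DHX29 was below 0 in every GM07029 culture and above 0 in every GM12813 culture, with line means that differed by 0.72 (limma's moderated F test, adjusted p = 0.0198), a call lost in 3 of 18 alternatives, among them that without GM12813 culture 3 (adjusted p up to 0.108). The ratio of DHX35, which is found in the catalytic spliceosome, was above 0 in all GM07029 cultures and below 0 in all cultures of GM10835 and GM12813, with a range of line means of 0.44 (adjusted p = 0.0291). That call was lost in 11 of 18 alternatives, among them those without any one culture of GM10835 or GM12813 or without GM07029 culture 2 (adjusted p up to 0.126). Both directions are relative to the median cluster.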

How the results depend on the processing

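The counts of helicases higher (20 to 23) and lower (2 to 4) over 7 lines moved little under the alternatives other than centring and the filter. Without centring 33 were higher, 0 lower, and the helicase median ratio was 1.17, since the median cluster then lay at 0.77. Of all 14167 tested clusters 11639 were then higher and 762 lower. With no filter on low signal the helicases lower over 7 lines numbered 5, but DDX4, DDX25 and DDX53, which lie below background, were then counted too. Among the helicases tested as reported, DHX9 and DDX17 stayed lower and DDX49 no longer passed. Signs turned without centring for the ratio over 7 lines of DDX49 (0.48), DDX5 (0.64), DDX50 (0.61), DDX52 (0.71), DHX35 (0.69) and DHX40 (0.56), and with the trend removed for DDX28 (-0.065), DDX5 (0.30) and DHX29 (-0.078). With single lines left out, DDX52 ran from -0.17 to 0.031 (above 0 without GM07019 or GM12812), DDX28 from -0.048 to 0.088 (below 0 without GM10835 or GM12814) and DHX29 from -0.039 to 0.081 (below 0 without GM12813, GM12814 or GM12815).

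The helicases differing in ratio, 12 as reported, numbered 1 with no filter, 7 without centring, 1 with first arrays only and 1 to 14 with single cultures left out. For the ratio between 3 lines over all clusters, 3595 passed as reported, 2012 with no filter, 2142 with first arrays only and 1808 to 5065 with single cultures left out. The causes were not tested. With a replicate block, in which culture numbers were paired across lines, 6 helicases passed in the ratio. Deviations of same-numbered cultures from their line means correlated at -0.43 to 0.20, and over 0.1 in 2 of 9 pairs. With 3 cultures per line, these correlations cannot tell whether same-numbered cultures were handled together. DHX57 has no value where both fractions had to lie above background. A choice among several clusters of a gene changed nothing, since each helicase had 1. Signals near background limit the ratios of the dimmest genes, and the ratio between fractions has no absolute scale.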
